A study of Mus musculus with 2 samples.

Results

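A set of 504 serum embryonic stem cells (ESCs) with the highest combined level of Rhox6, Rhox9, Hand1 and 1700013H16Rik was described, out of 10065 cells of that library that passed the filters and 13184 barcodes in all. A cell passed with at least 1000 detected genes, at most 10% mitochondrial UMIs (unique molecular identifiers, counts of captured transcripts) and no UMI of the fibroblast collagen gene Col1a2 or the endoderm factor Gata6. The score was the number of UMIs of the 4 genes per 10000 UMIs of the cell, and the highest 5% of cells, at a score of 2.33 or more, were taken as members. The members were chosen by the measured levels of these 4 genes, so those levels are given as a description and support nothing.

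The study mixed wild-type (WT) mouse cells carrying the ROSA mT/mG reporter, which transcribe tdTomato, with equal numbers of Cnot8 knockout (KO) cells lacking a deadenylase of the Ccr4-Not complex, both of strain ICR. The ESC library held the mixture from serum/LIF medium on feeder fibroblasts (0 h), and a second library held epiblast-like cells after 48 h with activin A, bFGF and KSR on Matrigel (48h-EpiLCs). Each stage was 1 library without replicates and each genotype came from its own line, so stage and library, and genotype and line, cannot be told apart. The 2 libraries held 25611 barcodes, with medians of 10965.5 (ESC) and 13333 UMIs (48h-EpiLC), and no test across samples was possible.

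Trophectoderm is the outer epithelium of the blastocyst and the source of trophoblast, the fetal part of the placenta. Cdx2, Eomes, Elf5, Gata3 and Tfap2c are transcription factors of trophoblast stem cells, Krt7, Krt8 and Krt18 are keratins of simple epithelia, and Hand1 is a basic helix-loop-helix factor required for trophoblast giant cells. Rhox6 and Rhox9 are neighbouring homeobox genes of the X-linked Rhox cluster, known for expression in placenta and germ cells. ESCs derive from the other lineage of the blastocyst, the inner cell mass, and rarely contribute to trophoblast.

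The members carried few UMIs of the genes that chose them. Rhox6 (X: 37826910 to 37829857 on GRCm38) had a summed level of 218 CPM (UMIs per 1000000 UMIs of the cells, 95% counting interval 206 to 231) and was detected in 355 members (70.4%). Rhox9 (X: 37899097 to 37901770) had 132 CPM (123 to 142) and was detected in 271 members (53.8%). 1700013H16Rik (X: 53742901 to 53757831), another X-linked gene, had 125 CPM (116 to 135) in 215 members (42.7%), and Hand1 (11: 57828705 to 57832818) had 61.8 CPM (55.5 to 68.7) in 127 members (25.2%). The most UMIs in 1 cell were 46 of Rhox6, 38 of Rhox9, 17 of 1700013H16Rik and 16 of Hand1.

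Membership rested on 1 UMI in 31 cells, on 2 in 53, on 3 in 113, on 4 in 85, on 5 to 9 in 161 and on 10 or more in 61. The 20 members just inside the limit scored 2.33 to 2.42 with 1 to 5 UMIs of the 4 genes, and the 20 cells just outside scored 2.26 to 2.33 with 1 to 6 UMIs. The limit thus separated cells with like UMI numbers, whereas the highest score was 129.8 with a median of 3.62. Feeder fibroblast-like cells of the same library (158 cells with at least 5 UMIs of Col1a1, Col1a2 and Col3a1, median 15903 UMIs) had a UMI of Rhox6 in 6.96%, of Rhox9 in 4.43%, of Hand1 in 3.80% and of 1700013H16Rik in 5.06%. These shares were taken as a background for single UMIs, a choice that was not tested. The share of all cells that passed with a Hand1 UMI was 3.27% (2.93 to 3.63), inside the interval of the feeder fibroblast-like share (1.41 to 8.08). The feeder fibroblast-like cells were deeper. After each cell had been thinned to 5000 UMIs, Hand1 was in 1.80% (1.54 to 2.08) of cells that passed. In the thinned feeder fibroblast-like cells it was in 0.654% (0.0165 to 3.59). The intervals overlapped at both depths, and that of the thinned feeder fibroblast-like cells was wide. These shares therefore cannot tell a single Hand1 UMI apart from that background. Thinned, Rhox6 was in 7.89% (7.35 to 8.44) of cells that passed and in 1.31% (0.159 to 4.64) of feeder fibroblast-like cells. Rhox9 was in 4.34% (3.94 to 4.77) and 0.654% (0.0165 to 3.59) of the same cells. Rhox6 and Rhox9 are paralogs, and 159 of the 961 stretches of 50 bases in the Rhox6 transcript (16.5%) also occurred in a Rhox9 transcript, but 0 of those in the last 300 bases.

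Which of the 4 genes a member carried varied widely. All 4 were detected in 14 members, 3 in 104, 2 in 214 and a single one in 172. Rhox6 with Rhox9 was the most frequent combination (105 members), followed by Rhox6 alone (73) and 1700013H16Rik alone (70). For description, after the values had been seen, the members were divided into 127 with Hand1, 307 with Rhox6 or Rhox9 but no Hand1, and 70 with 1700013H16Rik as their single defining gene.

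**Figure D1:**
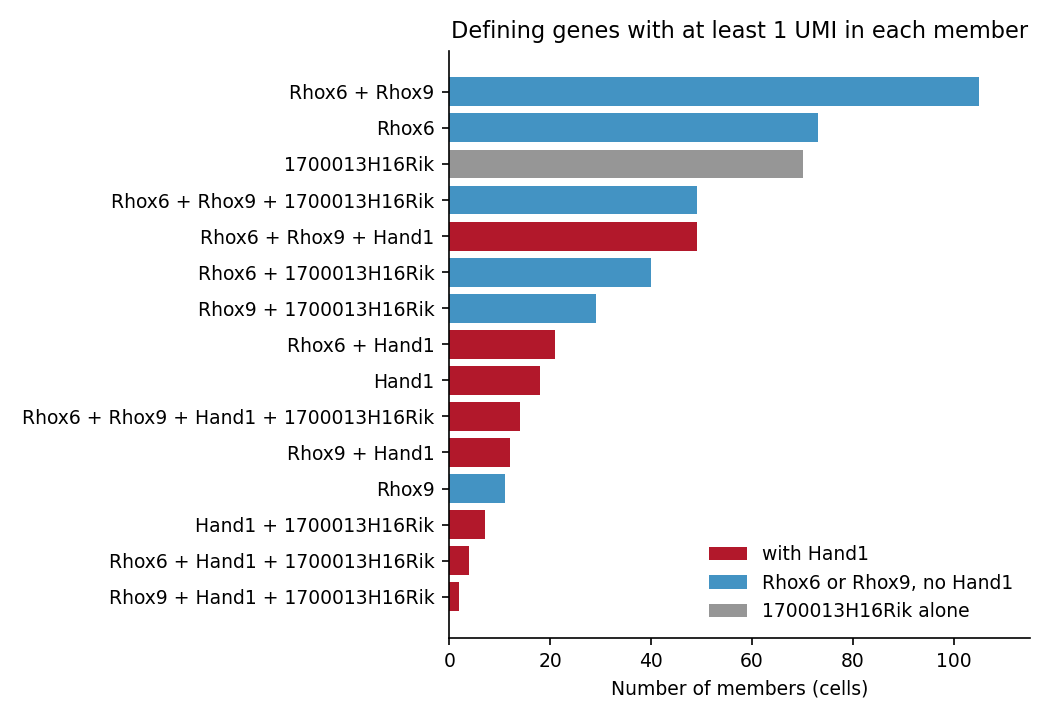
Number of members (x axis, cells) with each combination of defining genes detected at 1 UMI or more (y axis), coloured by the 3 divisions. Rhox6 with Rhox9 leads with 105 members, and the 70 members with 1700013H16Rik alone form the third most frequent combination.

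Each defining gene was also read in cells chosen without it, a measurement that its own level did not enter. In cells with 2 or more Y-linked UMIs (Ddx3y, Eif2s3y, Kdm5d and Uty) and no tdTomato UMI, Rhox6 was at 144 CPM (127 to 162) in the highest 5% for the other 3 genes and at 17.9 CPM (16.4 to 19.6) in cells without them, an 8.03-fold difference (6.90 to 9.32). Rhox9 was at 96.7 against 7.25 CPM (13.3-fold, 10.8 to 16.4), and Hand1 at 14.4 against 2.39 CPM (6.03-fold, 3.71 to 9.61). 1700013H16Rik differed least, with 30.7 against 10.8 CPM (2.84-fold, 2.10 to 3.77). The 4 genes had been proposed together with results of these data in view, so the chance to find them together was not that of an arbitrary set.

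Among all 10065 cells, Rhox6 and Rhox9 were detected together in 371, where 163 would follow from their separate shares. Rhox9 and Hand1 were found together in 97 cells against 33.1, and Rhox6 and Hand1 in 118 against 52.99. Hand1 and 1700013H16Rik were found together in 39 cells against 24.6. Deeper cells detect every gene more often, so these counts are descriptions.

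To compare cells of like depth and line, 1664 comparison cells were taken with a score of 0, no tdTomato UMI and at least 2 Y-linked UMIs, and the same line criterion left 143 members, called line-matched below. The line-matched members had a median of 12257 UMIs per cell and the comparison cells 12578.5, whereas the 504 members had 10738. Mitochondrial UMIs were 4.23% and 3.79%, and ribosomal protein UMIs 19.3% and 18.9% (medians, line-matched members and comparison cells). Doublet scores in the highest 10% of the library were found in 7.54% of members, 11.7% of comparison cells and 9.18% of the cells that passed. 2 members had a barcode that also occurred in the 48h-EpiLC library, of 41 such barcodes.

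The line-matched members had higher levels of simple-epithelial keratins and H19, of several genes of the trophoblast stem and trophectoderm list, and of Nanog. Of 9359 genes with a mean of 5 CPM or more, 148 (1.58%) were at least 2-fold higher in the line-matched members and 43 (0.459%) at least 2-fold lower, on the scale of log2(CPM + 1). The whole counting interval lay beyond 2-fold for 55 of the higher and for 0 of the lower genes. The intervals cover counting error among the UMIs summed and not the spread between cells or cultures.

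**Figure D2:**
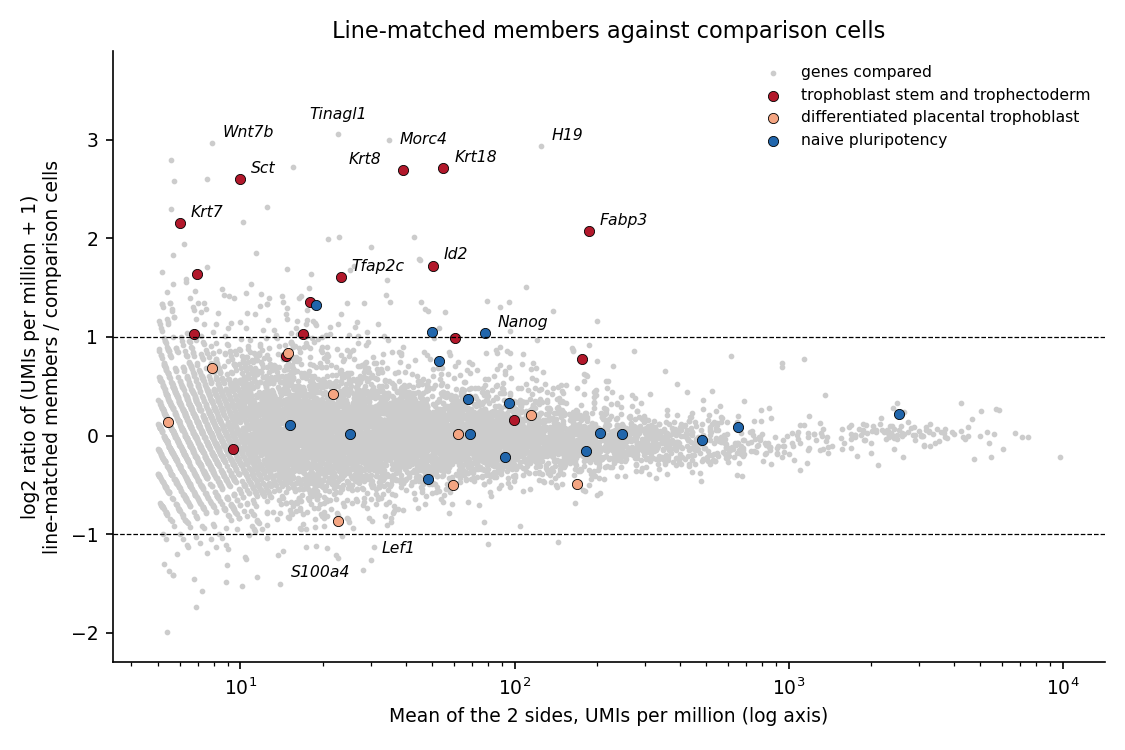
Each point is a gene, by its mean level of line-matched members and comparison cells (x axis, CPM, log axis) and its log2 ratio of CPM + 1 (y axis), with the defining genes left out and dashed lines at 2-fold. Red points of the trophoblast stem and trophectoderm list lie mostly above 0 (11 of 16 past 2-fold), whereas blue naive genes lie around 0 with a median of 0.08.

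Tinagl1, Morc4, Eps8l2 and H19 were among the genes with the highest ratios. Tinagl1, which encodes a secreted matrix protein, was at 41.4 CPM (32.8 to 51.6) in line-matched members and 4.10 CPM (3.31 to 5.02) in comparison cells, a 10.1-fold difference (7.39 to 13.8). H19, an imprinted non-coding RNA abundant in extraembryonic tissues, was at 222 CPM (202 to 244) against 28.2 CPM (26.0 to 30.4), or 7.89-fold (6.97 to 8.94). Morc4, an X-linked gene of the MORC ATPase family, was at 62.9 against 7.01 CPM (8.98-fold, 7.02 to 11.5).

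H19 was detected in 55.2% of line-matched members and 25.3% of comparison cells, and after each cell had been thinned to 5000 UMIs in 36.4% and 11.4%. Tinagl1 was detected in 27.3% and 4.99%, or thinned in 15.0% and 2.07%. Both genes were also present in feeder fibroblast-like cells, H19 at 134 CPM and Tinagl1 at 71.9 CPM. The feeder markers summed to 533 CPM in line-matched members and 571 CPM in comparison cells, and Col1a1 was at 1.05 and 3.70 CPM. Cells with a Col1a2 UMI had been removed from both sets, and the part of feeder RNA in these levels was not tested.

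Fabp3, a fatty acid-binding protein, was at 302 CPM (278 to 328) against 71.0 CPM (67.6 to 74.6), a 4.25-fold difference (3.86 to 4.68). Eps8l2, a regulator of actin, was at 27.8 against 3.35 CPM (8.30-fold, 5.73 to 11.9). Lcp1, an actin-bundling protein, differed 6.10-fold (4.08 to 8.99) and the transcription factor Sox21 5.61-fold (3.59 to 8.60). Within the KO-line type described below, Sox21 was at 17.5 CPM in members against 2.72 CPM in cells with a score of 0. Within the WT-line type it was at 5.58 CPM (1.15 to 16.3) against 4.84 CPM. The WT-line type members held 3 Sox21 UMIs, too few to show a difference or its absence. In the 48h-EpiLC library Sox21 was at 1.06 against 0.943 CPM. Ptges, a prostaglandin E synthase, and Rbm47, an RNA-binding protein, were 4.38-fold and 4.37-fold higher. The UMIs of Rbm47 were spread over more members than those of Krt8, the 10 highest holding 17.9% and 56.0%.

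The lower genes differed less and rested on fewer UMIs. Lef1, a transcription factor of Wnt signalling, was at 17.3 CPM (11.9 to 24.3) against 42.8 CPM (40.1 to 45.6), 0.404 of the comparison level (0.277 to 0.572). The POU factor Pou2f2 was at 5.77 against 17.2 CPM, and the calcium-binding S100a4 at 6.82 against 21.1 CPM. S100a4 was detected in 154 comparison cells (9.25%). With cells holding UMIs of further marker genes left out, its log2 ratio was -0.86, as against -1.50. The part of feeder RNA in the S100a4 levels was not tested. Ccdc136, Glt1d1, Hopx, Gap43, Bnc2, Spata13, Akr1b8 and Zfp423 were at 0.374 to 0.435 of the comparison level. None of the lower genes named here had a counting interval entirely beyond 2-fold.

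Krt8 and Krt18, the keratin pair of the trophectoderm, differed by a like factor. Krt8 was at 68.7 CPM (57.4 to 81.5) against 9.78 CPM (8.54 to 11.2), or 7.02-fold (5.61 to 8.75). Krt18 was at 95.4 CPM (82.1 to 110) against 13.7 CPM (12.3 to 15.4), or 6.94-fold (5.75 to 8.36). A small number of cells carried these UMIs, since 10 of the 504 members held 56.0% of the Krt8 and 54.5% of the Krt18 UMIs. Feeder fibroblast-like cells had 5.42 CPM of Krt8 and 8.68 CPM of Krt18.

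Krt8 and Krt18 lie 23.7 kb apart on chromosome 15, and the 250 bases before their transcription starts are shown because both genes were higher together and are partners in 1 filament. The sequences are those of RefSeq (GRCm38.p6), read in the direction of transcription, and the capitals mark a match to GCCNNNGGC, the binding motif of the AP-2 family to which Tfap2c belongs.
Krt8 (minus strand, chr15:102004343-102004592): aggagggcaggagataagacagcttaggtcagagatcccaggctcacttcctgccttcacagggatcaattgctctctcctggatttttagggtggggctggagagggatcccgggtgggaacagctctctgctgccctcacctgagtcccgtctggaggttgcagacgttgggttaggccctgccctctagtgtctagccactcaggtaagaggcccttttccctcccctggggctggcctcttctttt
Krt18 (plus strand, chr15:102027966-102028215): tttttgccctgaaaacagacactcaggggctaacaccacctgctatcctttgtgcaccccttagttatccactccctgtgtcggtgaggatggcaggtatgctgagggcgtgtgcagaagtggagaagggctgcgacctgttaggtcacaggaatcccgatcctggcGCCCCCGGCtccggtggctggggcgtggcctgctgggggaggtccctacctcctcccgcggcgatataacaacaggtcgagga
Krt18 held 1 match on either strand, 83 bases before the start, and Krt8 held 0. The motif occurred in 13.7% of 32851 promoters of this length, in 20.6% of the 7478 tested genes with a promoter entry and in 32 of 116 genes at least 2-fold higher (27.6%). CANNTG, the motif of basic helix-loop-helix factors such as Hand1, occurred in 66.2%, 55.0% and 57.8% of the same sets, and GATAAG, the motif of GATA factors, in 6.55%, 4.03% and 6.90%. Rhox6, Rhox9, Hand1 and H19 were not among the promoter entries.

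Of 27 genes listed for trophoblast stem cells and trophectoderm, 16 reached 5 CPM, 11 of them were at least 2-fold higher in the line-matched members and 0 lower, with a median log2 ratio of 1.48 against -0.00 over all tested genes. Besides Krt7, Krt8, Krt18 and Fabp3 these were Eomes, Tfap2c, Tead4, Fgfr2, Id2, Cldn4 and Sct. Tfap2c was at 35.7 CPM (27.7 to 45.2) against 11.0 CPM (9.69 to 12.5), and Id2, an inhibitor of basic helix-loop-helix factors, at 78.1 CPM (66.1 to 91.7) against 23.0 CPM (21.1 to 25.1). Tead4, the TEA-domain factor of trophectoderm formation, was at 23.1 against 10.8 CPM, and Fgfr2, the receptor through which FGF4 maintains trophoblast stem cells, at 11.0 against 2.86 CPM. Krt7, Sct, Fgfr2 and Eomes were below 5 CPM in the comparison cells and passed the filter through the members, so the count of 11 is no support for the list.

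The master factors of the trophoblast lineage were scarce. Cdx2 had 8 UMIs in the 143 line-matched members, 1 each in 8 cells (4.19 CPM, 1.81 to 8.26), against 0.881 CPM (0.538 to 1.36) in comparison cells. Elf5 had 4 UMIs (2.10 CPM, 0.571 to 5.37) against 0.264 CPM, and Gata3 16 UMIs (8.39 CPM, 4.79 to 13.6) against 1.37 CPM. Eomes was at 9.44 CPM (5.59 to 14.9) against 4.10 CPM (3.31 to 5.02). Gata3 was also at 9.76 CPM (6.43 to 14.2) in feeder fibroblast-like cells, whereas Elf5 had 0 UMIs there.

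Of 28 genes of differentiated placental trophoblast, 9 reached 5 CPM, 0 of these were 2-fold higher or lower, and the median log2 ratio was 0.14. In line-matched members 13 of the 28 had 0 UMIs, among them Tpbpa, the marker of spongiotrophoblast, and Prl3d1, the placental lactogen of giant cells. Plac1, an X-linked gene of trophoblast, had 13 UMIs in 2 line-matched members, 10 of them in 1 cell. A count of 0 in the 1907346 UMIs of the line-matched members allows a level of up to 1.57 CPM (3 counts).

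Of 10 defining markers (Cdx2, Eomes, Elf5, Gata3, Esx1, Krt7, Ascl2, Tpbpa, Prl3d1 and Plac1), 63.5% of members had none. At least 2 of them were detected in 17 of 143 line-matched members (11.9%, 7.08 to 18.4) and in 30 of 1664 comparison cells (1.80%, 1.22 to 2.56). After thinning the shares were 2.14% (0.444 to 6.13) and 0.365%, and both rested on few cells. Before thinning the share was 3.16% in feeder fibroblast-like cells. Since most members showed no defining marker, the set is named here by its leading genes and not as a trophoblast cell type.

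Few of the other genes of the Rhox cluster were measured, and those were higher. Of 20 listed, 3 reached 5 CPM with a median log2 ratio of 0.69, and 15 had 0 UMIs in the line-matched members. Rhox5, the abundant member of the cluster in ESCs, was at 1173 CPM (1125 to 1222) against 725 CPM (714 to 736), and was detected in 99.3% and 97.2% of the cells. Rhox1 was the single one past 2-fold, with 33.0 CPM (25.4 to 42.3) against 13.5 CPM (12.0 to 15.1). Several copies of Rhox2, Rhox3 and Rhox4 are nearly identical, so reads of one could be lost or placed on another, and their zeros are uncertain.

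In the epithelial list 16 of 18 genes were measured and 8 were at least 2-fold higher (Krt7, Krt8, Krt18, the tight junction claudins Cldn3, Cldn4 and Cldn7, the desmosomal Dsp and the p53 target Perp), with a median log2 ratio of 0.96. Cldn7 was at 47.7 CPM (38.4 to 58.6) against 11.9 CPM (10.6 to 13.5). The core pluripotency list had 0 of 6 past 2-fold with a median of -0.11, and Pou5f1 was at 69.7 CPM (58.4 to 82.6) against 78.3 CPM (74.7 to 82.0).

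Among 17 measured naive genes, 3 were at least 2-fold higher and none lower. Nanog, the homeobox factor of the naive state, was at 105 CPM (91.3 to 121) against 50.7 CPM (47.8 to 53.7), the T-box factor Tbx3 at 67.6 against 32.3 CPM, and Dppa3 at 27.3 against 10.3 CPM. Zfp42, another naive marker, was at 671 CPM (635 to 709) against 634 CPM (623 to 644). In the formative list 1 of 9 genes, Lef1, was at least 2-fold lower, and the median was -0.41.

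Other lists differed in single genes. Smad6 and Id2, targets of BMP signalling, were the 2 of 12 measured BMP genes past 2-fold, Tbx3 was 1 of 5 in the extraembryonic and lateral mesoderm list, and Eomes was the single measured mesendoderm gene. H19 was 1 of 21 imprinted genes past 2-fold, and its neighbour Igf2 was at 2.10 and 2.07 CPM, but at 10.0 CPM (5.48 to 16.8) in the members with Hand1. Tdrkh was 1 of 17 germline genes, Xlr4b and Usp26 were 2 of 8 X-linked reproductive genes, and Atf3 was 1 of 19 stress genes. None of 4 primitive endoderm, 5 feeder, 17 DNA methylation, 20 S phase and 20 G2 and mitosis genes passed 2-fold in either direction, and no gene of the 2-cell-like list reached 5 CPM.

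Krt8, H19, Fabp3 and Tinagl1 were highest in the members with Hand1. Krt8 was at 536 CPM (498 to 576) in members with Hand1, 38.3 CPM in those with Rhox6 or Rhox9 but no Hand1, 10.3 CPM in those with 1700013H16Rik alone and 9.78 CPM in comparison cells. H19 followed the same order with 760, 164, 29.5 and 28.2 CPM, Fabp3 with 674, 237, 89.8 and 71.0 CPM, and Tinagl1 with 127, 25.1, 6.41 and 4.10 CPM. Between the members with 1700013H16Rik alone and the comparison cells, the intervals of Krt8, H19 and Tinagl1 overlapped. These divisions include cells without a line criterion, and the comparison cells are of 1 line.

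Sct, the gene of the hormone secretin, was at 84.6, 15.8, 1.28 and 2.12 CPM in the same order, and Wnt7b, a Wnt ligand, at 37.3, 12.4, 1.28 and 1.01 CPM. Cdx2 was at 12.9 CPM (7.64 to 20.4) in members with Hand1, from 18 UMIs in 12 cells, and at 1.73 CPM in those with Rhox6 or Rhox9 but no Hand1. Gata3 was at 22.9, 5.48, 2.56 and 1.37 CPM. The placental growth gene Peg10 was at 284, 149 and 118 CPM in the 3 divisions and at 106 CPM in comparison cells. In the line-matched members it was at 123 CPM.

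The trophoblast stem and trophectoderm list had a median log2 ratio of 2.71 in members with Hand1, 1.29 in those with Rhox6 or Rhox9 but no Hand1, and 0.35 in those with 1700013H16Rik alone. Different genes were measured in each division, as a gene could reach 5 CPM through its members, so these medians are no support for an order. In members with Hand1, 453 of 9446 genes (4.8%) were at least 2-fold higher, and other lists moved there as well: Col4a1, Col4a2 and Amn, 3 of 6 measured primitive endoderm genes, and Phlda3, Fos, Jun and Atf3, 4 of 19 stress genes. The primitive endoderm list summed to 1015 CPM in these members and 828 CPM in comparison cells, with Col4a1 at 42.99 CPM (32.8 to 55.3) against 9.83 CPM, and the stress list to 2184 against 1992 CPM. Their part in the result was not tested. In the 34 line-matched members with Hand1, Krt8 was at 251 CPM, Krt18 at 333 CPM and H19 at 533 CPM. Nanog and Rhox5 lay above the comparison cells in each of the 3 divisions, Nanog at 104, 114 and 100 CPM and Rhox5 at 1187, 1127 and 1041 CPM. The Nanog level with Hand1 is an average that includes the keratin-high cells described below. Of 6 core pluripotency genes Lin28a was at least 2-fold lower with Hand1. Tdgf1 was at 441, 593 and 749 CPM in the 3 divisions and at 738 CPM in comparison cells.

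**Figure D3:**
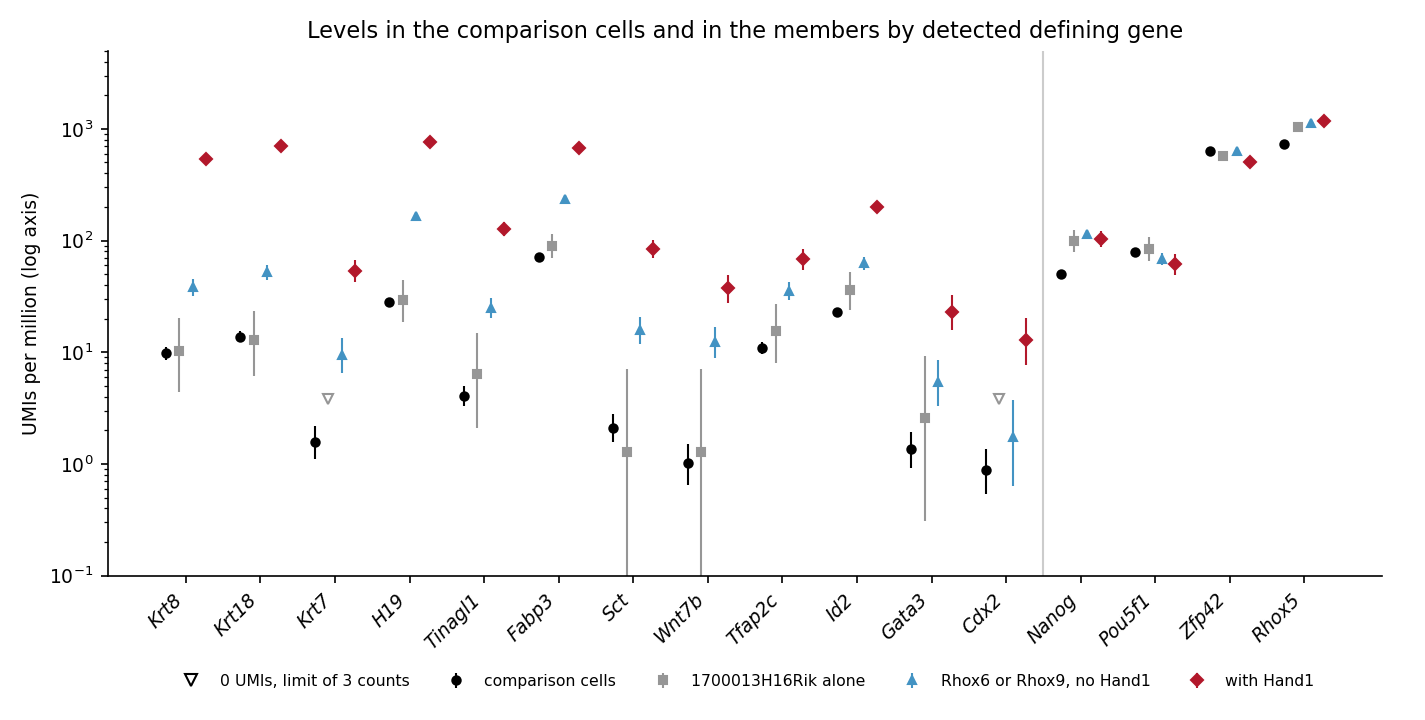
Levels of 16 genes (y axis, CPM, log axis) in the comparison cells and in members with 1700013H16Rik alone, with Rhox6 or Rhox9 but no Hand1, and with Hand1; bars are exact 95% Poisson intervals, of which those of Sct and Wnt7b with 1700013H16Rik alone run past the lower edge, and open triangles the limit that 0 UMIs allows (3 counts). The genes left of the vertical line are highest with Hand1, as Krt8 at 536 CPM, whereas Nanog, Pou5f1, Zfp42 and Rhox5 differ less among the divisions. Zfp42 was at 509 CPM with Hand1 and at 636 CPM with Rhox6 or Rhox9 but no Hand1.

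Keratin UMIs were unevenly spread over single members. Among the 127 members with Hand1, 52 (40.9%) had no UMI of Krt8 or Krt18 and 30 (23.6%) had 10 or more, of which 13 had 40 or more. At least 10 keratin UMIs were found in 7 of the 307 members with Rhox6 or Rhox9 but no Hand1 (2.28%), in 0 of 70 with 1700013H16Rik alone, which allows a share of up to 4.29% (3 cells), and in 0 of 1664 comparison cells, up to 0.180%. The most keratin UMIs in 1 comparison cell were 5, and in 1 member 234. A class of cells with 10 or more keratin UMIs, called keratin-high, was set after these values had been seen.

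**Figure D4:**
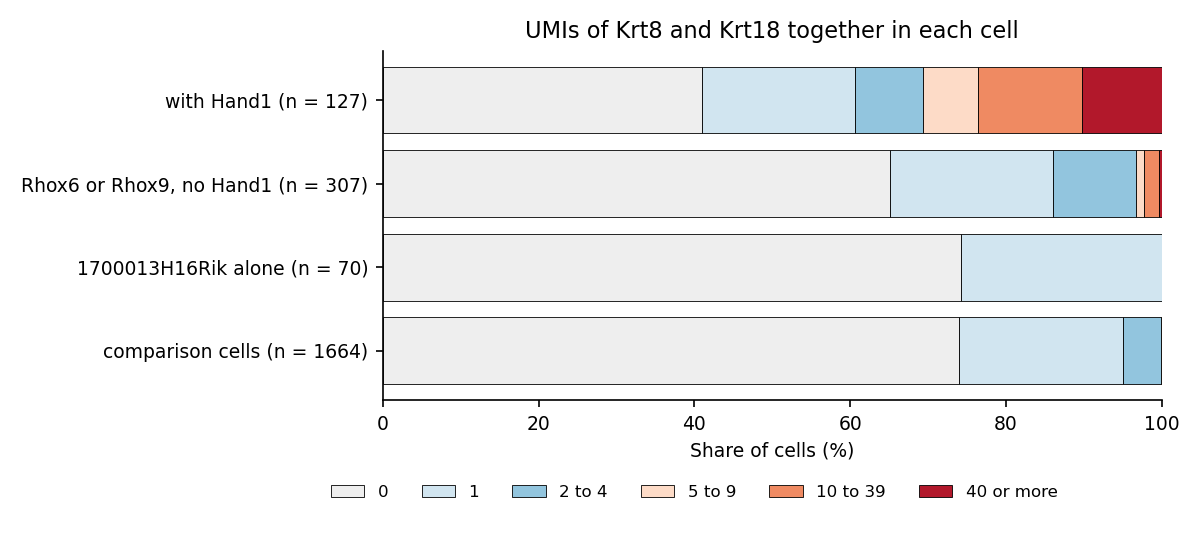
Share of cells (x axis, percent) by the number of Krt8 and Krt18 UMIs in the cell (colours) for the 3 divisions of the members and the comparison cells. In members with Hand1, 23.6% of cells held 10 or more keratin UMIs, against 0 of 1664 comparison cells.

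Of the 48 keratin-high cells in the ESC library that passed the filters, 37 (77.1%, 62.7 to 88.0) were members. These 37 cells held 85.3% of the members' keratin UMIs, had a median of 9427 UMIs and carried Krt8 at 1819 CPM and Krt18 at 2316 CPM. At least 2 defining trophoblast markers were detected in 28 of them (75.7%, 58.8 to 88.2), or in 36.4% after thinning, against 6.42% of the other 467 members. Krt7 was at 173 CPM in 73.0% of the keratin-high members, Cdx2 at 40.2 CPM (23.4 to 64.4) in 29.7%, Gata3 at 56.8 CPM (36.4 to 84.5) and Plac1 at 42.6 CPM. Tpbpa and Prl3d1 had 0 UMIs in these cells, which allows up to 7.10 CPM.

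Most of the measured pluripotency genes were lower in the keratin-high members. Nanog was at 18.9 CPM (8.17 to 37.3), Pou5f1 at 26.0 CPM (13.0 to 46.6) and Zfp42 at 241 CPM (197 to 293), compared with 50.7, 78.3 and 634 CPM in comparison cells. The core pluripotency list had a median log2 ratio of -0.83 and the naive list -0.46. Of 17 measured naive genes 5 were at least 2-fold lower and 4 were higher, Dppa3 past 2-fold. Many other genes differed too, with 996 of 9479 at least 2-fold higher than in comparison cells and 975 lower. Of 20 stress genes 6 were at least 2-fold higher and 1 lower. S phase genes summed to a median of 12 UMIs per 5000 in keratin-high members and 19 in comparison cells. Rhox5 was at 1102 CPM, as in the other members.

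Without the 7 keratin-high cells, the other 136 line-matched members had 124 genes at least 2-fold higher, compared with 148. Krt8 then differed by 1.07 and Krt18 by 0.97 on the log2(CPM + 1) scale, as against 2.69 and 2.71 with those cells. H19 differed by 2.46 and Tinagl1 by 2.61 without them, as against 2.94 and 3.06. The trophoblast stem and trophectoderm list had a median of 1.02, with 8 of 14 measured genes past 2-fold. The class was set by its keratin UMIs, so leaving it out lowers the keratin ratios by design. Their fall can therefore not be set against that of H19 or Tinagl1. Over the other line-matched members the intervals of H19 and Tinagl1 stayed past 2-fold. Krt8 lay just past 2-fold with an interval that reached below it (0.62 to 1.64), and Krt18 lay below 2-fold. In the members with 1700013H16Rik alone, H19 (29.5 CPM) and Tinagl1 (6.41 CPM) had intervals that overlapped those of comparison cells.

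The members were unevenly drawn from the 2 lines. Cells were placed by transcripts that separated the lines in earlier results of these data. KO-line type cells had no tdTomato UMI and at least 2 UMIs of Y-linked genes, Ipp, Nr1h5 and BC023719, and WT-line type cells had none of those and at least 1 UMI of tdTomato, Dera or Slc25a13. Of 504 members 322 (63.9%, 59.5 to 68.1) were of the KO-line type and 50 (9.92%) of the WT-line type, against 50.3% and 21.9% of all cells that passed. A tdTomato UMI was found in 6 members (1.19%) and in 486 cells that passed (4.83%), and 132 members could not be placed.

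Of the KO-line type cells 6.36% (5.70 to 7.06) were members and of the WT-line type cells 2.27% (1.69 to 2.98), at median depths of 12389 and 12354.5 UMIs. The 4 genes summed to 60.7 CPM in KO-line type and 32.1 CPM in WT-line type cells, with Rhox6 at 27.1 and 13.6 CPM and Hand1 at 4.51 and 3.86 CPM. After thinning, KO-line type cells were 81.2% of the placed members and 63.1% of all placed cells, against 86.6% and 69.7% before. Whether this is a difference of genotype or of line cannot be told apart.

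Krt8, H19 and Tinagl1 were higher in the members within each line. In KO-line type cells, 124 of 9400 genes (1.32%) were at least 2-fold higher in the 322 members than in 3235 cells with a score of 0, with Krt8 at 94.3 against 9.82 CPM, H19 at 241 against 26.5 CPM and Tinagl1 at 42.5 against 4.60 CPM. In WT-line type cells, 419 of 9126 genes (4.59%) were, but there the 50 members held 537673 UMIs, and for 307 of the 419 the counting interval lay above 1. Of the 148 genes higher in the line-matched contrast, 104 were measured in WT-line type cells, which share no cell with it, and 100 of those were higher in the members, as were 50.2% of all genes tested there, with a median log2 ratio of 1.46. A gene low in cells with a score of 0 reached 5 CPM there only through the members. Part of this count was thus fixed by the filter, and it is a description.

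In WT-line type members Krt8 was at 431 CPM (378 to 491) against 9.32 CPM in WT-line type cells with a score of 0, H19 at 554 against 19.7 CPM and Tinagl1 at 78.1 against 1.69 CPM. Keratin-high cells were 11 of the 50 WT-line type members (22.0%, 11.5 to 36.0) and 18 of the 322 KO-line type members (5.59%, 3.35 to 8.69). Nanog was at 110 against 87.9 CPM in WT-line type cells, beside 105 against 50.7 CPM in the line-matched contrast. Members with these features were thus found in both lines.

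The same rule gave 464 of 9267 cells in the 48h-EpiLC library, at a score of 2.60 or more. Read without its own level, Rhox6 differed 7.66-fold, Rhox9 11.0-fold, Hand1 6.36-fold and 1700013H16Rik 3.22-fold. In 209 line-matched members against 1311 comparison cells, 145 of 9529 genes (1.52%) were at least 2-fold higher. Of the 148 genes from the ESCs 112 were measured, 106 of these were higher in the 48h-EpiLC members (94.6%, as against 53.5% of all genes) and 44 past 2-fold, with a median of 0.83. Here too, genes low in the comparison cells were measured only through the members, so these counts are descriptions. Tinagl1 was at 40.1 against 2.19 CPM, H19 at 59.0 against 9.47 CPM and Tead4 at 13.6 against 1.80 CPM.

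Keratin ratios were smaller in the 48h-EpiLC library. Krt8 was at 82.4 against 21.8 CPM and Krt18 at 157 against 67.4 CPM, and the comparison cells carried more of both than those of the ESC library. Of 101 keratin-high cells 36 (35.6%, 26.4 to 45.8) were members, compared with 77.1% in the ESC library, and 55 members had Hand1. Cdx2 was detected in 1 of 209 line-matched 48h-EpiLC members (0.266 CPM) and was at 0.514 CPM in their comparison cells. These are too few UMIs to show a difference or its absence. Naive genes were higher in these members, with 5 of 14 past 2-fold and a median log2 ratio of 0.64. The median of that list was 0.08 in the line-matched ESC members. Nanog was at 39.1 against 14.6 CPM in the 48h-EpiLC library. The formative list had a median of -0.65, with 0 of 12 genes higher. Of 6 measured feeder markers 3 were past 2-fold (Acta2, Tagln and S100a6), and the list summed to 435 CPM in members and 208 CPM in comparison cells. The part of these differences in the results of this library was not tested. KO-line type cells were members in 6.78% and WT-line type cells in 1.65%.

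**Figure D5:**
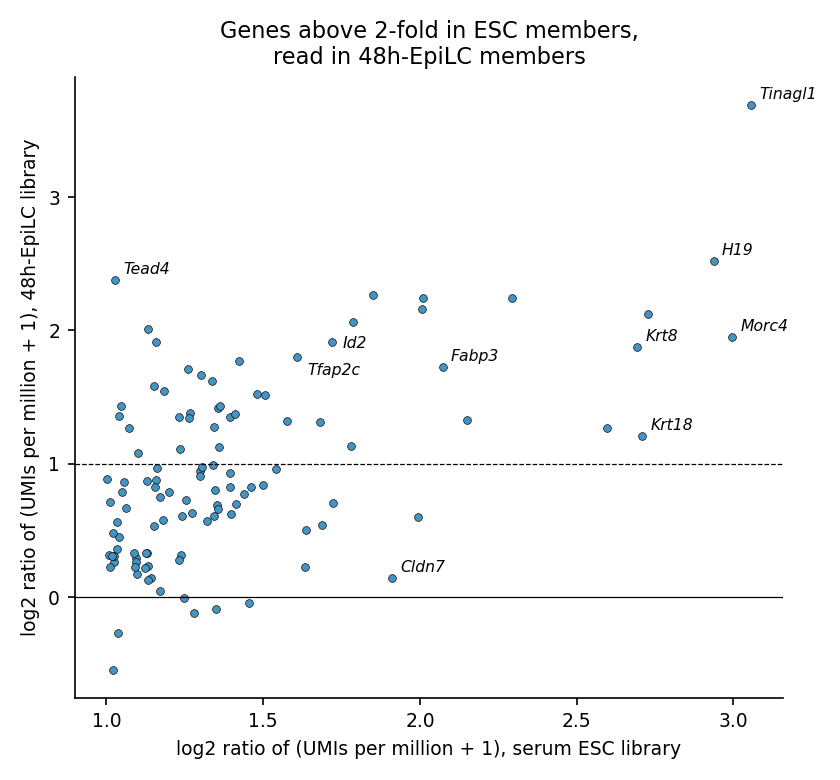
Log2 ratios of CPM + 1, line-matched members over comparison cells, in the ESC library (x axis) and the 48h-EpiLC library (y axis) for the 112 genes at least 2-fold higher in ESC members that were measured in both, with the dashed line at 2-fold. Of these genes 106 lie above 0 and 44 past 2-fold, led by Tinagl1 at 3.06 and 3.69.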

How the data were processed

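Per the labels and the study's methods, 3' droplet libraries of mixed cells were counted by the authors with Cell Ranger 3.0.2 on mm10 plus the tdTomato coding sequence, and Seurat 4 is named for their later steps. The deposited values are UMI counts per gene and cell barcode, whole numbers without normalisation or stated removal of free RNA. Gene positions came from GENCODE M21 (GRCm38), which matched 32235 of 32286 features (99.8%).

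UMIs were summed over the cells of each set and scaled to the sum (CPM). Ratios used log2(CPM + 1) for genes with a mean of 5 CPM or more, and folds with intervals used CPM. With 1 library per stage no test was run. Exact Poisson and binomial 95% intervals cover counting error only. Doublet scores came from simulated doublets, and high-scoring cells were kept in the main values and left out in an alternative. Shares of cells were repeated after thinning to 5000 UMIs, which left out shallower cells (47 of 504 members).

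Genes named were the 4 defining genes and the 12 highest and lowest ratios at a mean of 10 CPM or more that were at least 1.5-fold the same way in all members and in per-cell means. Some genes that met this rule are not reported here. From each marker list, genes past 2-fold and up to 4 of the highest level could be named. The members, gene lists and line genes were chosen with earlier results of these data known. The divisions by defining gene, the keratin-high class and the contrasts within each line were added after values had been seen. Other genes named in the text were likewise picked after their values were seen. Alternatives changed the score limit, the filters, the scaling, the pseudocount and the sets compared. Calculations used Python 3.11.15, numpy 2.4.6, scipy 1.17.1, pandas 2.3.3 and scikit-learn 1.9.0, and were tested on simulated data.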

Additional observations from a re-analysis of the deposited data

How the results depend on the processing

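The numbers of genes past 2-fold moved most. The 148 higher genes became 302 when each cell was thinned to 5000 UMIs, 340 with the highest 2.5% of scores, 53 with the highest 10%, 48 at a mean of 20 CPM or more, 420 without the filter and 419 within the WT-line type (added after seeing the data). The 43 lower genes became 25 with all members, 224 when thinned, 195 and 8 at the 2 score limits, 70 without cells of high doublet score, 9 at 20 CPM, 334 without the filter, and 25 and 274 within the KO-line and WT-line type (added). Counts of lower genes therefore carry little weight. The median of the trophoblast stem and trophectoderm list (1.48) was 0.76 at the highest 10% and 2.27 within the WT-line type. That of the differentiated placental list (0.14) turned to -0.24 at 20 CPM, where fewer genes were left. The share with 2 or more defining markers (11.9%) fell to 2.14% when thinned and was 20.0% within the WT-line type. The KO-line type share of members (63.9%) was 37.9% when thinned, where fewer cells could be placed, and 59.5% with a score without Rhox6. The ratio of median depths (0.854) was 0.941 against all cells with a score of 0, and 0.973 and 0.957 within the KO-line and WT-line type. Under thinning it could give no value.

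For defining genes read in cells chosen by the other 3, the log2 differences without the line criterion, thinned, and at the highest 2.5% were 3.32, 2.22 and 3.74 for Rhox6 (3.01 in the report), 3.89, 1.60 and 3.33 for Hand1 (2.59), and 1.94, 2.37 and 2.05 for 1700013H16Rik (1.504). Rhox9 (3.74) was 2.36 when thinned and 4.38 at the highest 2.5%. At the highest 10% Rhox6 was 2.24 and Rhox9 2.96. The cause of these shifts was not tested. The other 119 values of these results moved less than their intervals or by less than 1.5 times, and of 480 values of named genes 380 did and 100 moved, 0 of them in sign. TMM scaling shifted every log2 ratio by -0.05. No paired analysis was possible because each stage was 1 library. Depth limits genes below about 5 CPM, for which most members had no UMI.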

Other observations

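X-linked genes were frequent among those higher in the line-matched members. Of the 148 genes 20 (13.5%) were X-linked, compared with 299 of 9354 tested genes with a known position (3.20%) and 0 of the 43 lower genes. In the 48h-EpiLC library 14 of 145 higher genes (9.66%) were X-linked. The defining genes, of which Rhox6, Rhox9 and 1700013H16Rik are X-linked, were left out of these counts. Genes low in comparison cells could pass the filter through the members, as Xlr4b with 2.91 CPM against 7.86 CPM in line-matched members. The shares are therefore descriptions. The non-coding RNA Xist was at 24.1 CPM in line-matched members, from 46 UMIs in 22 cells, and at 8.55 CPM in comparison cells. Usp26, an X-linked deubiquitinase gene, was at 40.4 CPM (31.9 to 50.5) and 11.5 CPM (10.2 to 13.0).

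The members with 1700013H16Rik alone, which lacked the keratin and H19 levels of the others, were higher in the X-linked Xlr family. The 9 genes of Xlr3, Xlr4 and Xlr5, summed because their copies are alike, were at 129 CPM (105 to 157) in these 70 cells, with a UMI in 70.0% of them. The sum was 93.9 CPM in members with Rhox6 or Rhox9 but no Hand1, 82.4 CPM in those with Hand1 and 43.5 CPM (40.8 to 46.2) in comparison cells, where 37.1% of cells had a UMI. The sum was chosen after its values had been seen.

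Outside the members, 11 keratin-high cells passed the filters, 3 of them with a score of 0. They had Krt7 at 143 CPM, Fabp3 at 889 CPM, Sct at 151 CPM and Wnt7b at 78.9 CPM, but 0 UMIs of Cdx2 and Eomes and 0 of Rhox9, which in 11 cells allows up to 21.5 CPM (3 counts). Rhox6 was detected in 5 of these cells (43.0 CPM) and Hand1 in 2, and Esx1 was at 28.7 CPM, from 4 UMIs in 1 cell. Across the 10065 cells, the genes whose level followed the score most closely were H19 (Pearson's r 0.32), Krt18 (0.28) and Tinagl1 (0.26), over cells that share 1 library and differ in depth.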
